A study of Mus musculus with 12 samples.

Results

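The genes described are 10 immediate early genes, Fos, Fosb, Jun, Junb, Egr1, Egr2, Egr3, Ier2, Dusp1 and Atf3, out of 21887 protein-coding genes with a position. The rule names them and uses no measured value, though they were chosen with earlier results of these data known. For each gene, H3K4me3 and H3K27me3 were read within 5 kb on either side of the gene span, on mm10 positions, in each of 8 peak lists. H3K4me3 is the histone mark of active or poised promoters, and H3K27me3 is the mark of Polycomb repression. The measure for a gene is its covered bases, the number of bases of this window that lie under a peak of a library.

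The study profiled lineage-negative, cKit-positive bone marrow cells, among which blood stem cells and progenitors are enriched, by chromatin immunoprecipitation with sequencing. The 2 knockout (KO) mice, KO_399 and KO_401, were Mx1Cre+ Ints11 flox/flox (typed flox/fox in the labels), and the 2 wild-type (WT) mice, WT_407 and WT_409, were littermates. All were C57BL/6. As the labels read, cells of both genotypes were sorted 4 days after poly(I:C), an RNA mimic that sets off the interferon response. Mx1Cre is an interferon-induced recombinase that is not restricted to blood stem cells, and the share of cells that had lost Ints11 was not measured in these data. Age, sex and whether the WT littermates carried Mx1Cre are not given in the sources used here. The numbers in the library names were read as mice. Each mouse gave 1 library for each mark.

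Immediate early genes are transcribed within minutes of a growth factor, cytokine or stress signal, without new protein synthesis. MAP kinases act on the serum response factor with its ternary complex partners and on CREB, which sit at the promoters of these genes, and paused RNA polymerase is then released. Their products are transcription factors and feedback regulators that set the later response. In the blood system Egr1 is known for holding stem cells quiescent, and Junb for limiting the expansion of myeloid cells. Ints11 is the RNA endonuclease of Integrator, a complex that cleaves nascent RNA near promoters and is known to act at immediate early genes.

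The promoters of Fos, Dusp1 and Atf3 and short windows of Egr2 are printed to show the letters that CREB and the serum response factor are known to bind, in DNA that lies under the H3K4me3 peaks described further on. The start-site peak covered the whole printed promoter in all 4 libraries, since it reached at least 799 bp upstream of these 3 starts. The tables of RefSeq (GRCm38.p6) held a promoter for 7 of the 10 genes, namely Fos, Fosb, Jun, Junb, Egr2, Dusp1 and Atf3. In the 250 bases before the start site, TGACG, the core of the cAMP response element, was searched on both strands and was found in 6 of these 7 genes, all but Jun. In Fos it lay from 129 to 125 and from 66 to 62 bases before the start, in Fosb from 60 to 56, in Junb from 106 to 102 and in Atf3 from 7 to 3. It was found in 17.8% of 32851 promoters. The full palindrome TGACGTCA, which holds TGACG on both strands, was in 1.55% of promoters and, among the 7, in Dusp1, from 143 to 136 bases before the start. The forward TATAAA was in 7.59% of promoters and, among the 7, in Fos, from 33 to 28 bases before the start. The CArG box, the site of the serum response factor, was in 1.47% of promoters and, among the 7, in Egr2. TGACTCA or TGAGTCA, the AP-1 site, was in 4.46% of promoters and was not found in these windows of the 7. These are matches of letters and no measure of binding. In the lines for Fos (chr12:85473640-85473889, plus strand), Dusp1 (chr17:26508473-26508722, minus strand) and Atf3 (chr1:191183334-191183583, minus strand), capitals mark TGACG or its reverse complement. In the 2 short lines for Egr2 (chr10:67537484-67537513 and chr10:67537787-67537816, plus strand), capitals mark the CArG box.
Fos: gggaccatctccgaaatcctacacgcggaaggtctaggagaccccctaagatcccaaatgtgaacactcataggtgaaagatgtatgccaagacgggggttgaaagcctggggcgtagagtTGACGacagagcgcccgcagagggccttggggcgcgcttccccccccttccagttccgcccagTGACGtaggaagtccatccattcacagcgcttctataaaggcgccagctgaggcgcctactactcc
Dusp1: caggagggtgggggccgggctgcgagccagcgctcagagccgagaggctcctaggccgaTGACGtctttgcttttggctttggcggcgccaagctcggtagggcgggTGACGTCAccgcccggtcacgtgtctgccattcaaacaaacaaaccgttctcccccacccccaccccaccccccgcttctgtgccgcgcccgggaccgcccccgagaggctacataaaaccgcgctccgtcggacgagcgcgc
Atf3: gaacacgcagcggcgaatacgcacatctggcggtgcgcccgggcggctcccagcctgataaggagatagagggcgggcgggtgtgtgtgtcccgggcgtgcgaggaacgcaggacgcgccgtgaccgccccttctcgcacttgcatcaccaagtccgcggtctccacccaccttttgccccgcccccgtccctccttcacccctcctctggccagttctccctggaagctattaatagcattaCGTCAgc
Egr2, first CArG box: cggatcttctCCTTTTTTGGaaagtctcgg
Egr2, second CArG box: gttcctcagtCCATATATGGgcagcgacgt

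The H3K4me3 lists held 25090 to 27676 peaks over 36.7 to 44.5 Mb, and the H3K27me3 lists 6542 to 11930 peaks over 15.2 to 34.5 Mb. KO_399 stood apart from the other 3 libraries with the longest H3K4me3 cover (44.5 Mb) and the shortest H3K27me3 cover (15.2 Mb). Its H3K4me3 list also had the highest background, 2.65 reads per position against 1.93 to 2.23. For H3K27me3 the background was higher in both KO lists, 3.302 (KO_399) and 3.672 (KO_401) against 3.09 (WT_407) and 3.155 (WT_409). Alone, KO_399 was the highest of the 4 at 72.4% of genes for H3K4me3 and the lowest at 72.8% for H3K27me3. The targeted gene Ints11 had 6171, 6311, 7629 and 6375 bp of H3K4me3 in WT_407, WT_409, KO_399 and KO_401, and no H3K27me3, which checks no label, since the sources used here do not say which part is deleted. Of the markers listed for the sorted cells, 10 of 10 stem and progenitor genes had H3K4me3 in all 4 libraries (7151 to 10211 bp per gene), among them Kit. So did 8 of 8 mature myeloid genes (4869 to 7475 bp per gene), while the T cell genes Cd3e, Cd8a and Bcl11b were at 0 in all 4, and 4 of 7 T lymphoid genes had it in all 4 (871 to 1052 bp per gene). B lymphoid genes had 4487 bp per gene in WT_409 against 1531 to 3148 bp in the others, with 6 of 8 marked in all 4, and Il7r at 0 outside WT_409. Erythroid genes had 1944 bp per gene in WT_409 against 865 to 1087 bp, with 3 of 7 marked in all 4, Hbb-bs and Slc4a1 at 0 outside WT_409 and Alas2 at 0 in all. The part that cells of these types, or the background of the lists, play in the values of the immediate early genes was not tested.

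All 10 immediate early genes carried H3K4me3 in all 4 libraries, as did 64.3% of protein-coding genes. They fell into 2 sets by the other mark. Fos, Jun, Junb, Ier2 and Dusp1 had no H3K27me3 peak in their window in any library, a state shared with 70.2% of genes. Fosb, Egr1, Egr2, Egr3 and Atf3 had H3K27me3 in all 4, found at 19.0% of genes, and thus carried both marks in all 4, found at 13.0%. In a bulk library, a mark on fewer cells and less of the mark on each cell cannot be told apart, and both marks in 1 window need not lie on the same allele or in the same cell. The lists keep peaks with a fold above 5 (the authors' ratio of reads over background at the summit), so a window without a peak is not shown to lack the mark.

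The H3K4me3 domains of the genes without H3K27me3 were long beside those of other genes. By mean covered bases over the 4 libraries, Ier2 stood at percentile 96.0, Junb at 94.0, Fos at 90.7, Jun at 86.8 and Dusp1 at 86.7 of the 14067 genes marked in all 4, whose median was 2647 bp. The genes with both marks ranged from percentile 63.0 for Atf3 to 92.3 for Fosb, with Egr3 at 66.4, Egr1 at 71.5 and Egr2 at 72.0. The order by mean, from high to low, was Ier2, Junb, Fosb, Fos, Jun, Dusp1, Egr2, Egr1, Egr3 and Atf3. The ranges of the 4 values overlapped between neighbours in that order in every case, and so did those of Fosb and Fos with Jun and Dusp1. Compared library by library, Ier2 lay above Junb, Fosb above Fos, Fos above Jun and Dusp1 above Egr2 in all 4. The other neighbours changed places in at least 1 library. Ier2 and Junb lay above Egr1, Egr2, Egr3 and Atf3 in every library.

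Compared between genotypes, 4 of the 10 genes, Jun, Junb, Ier2 and Dusp1, had more bases under H3K4me3 in each KO library than in either WT library, and none had fewer. Over all genes with H3K4me3 in any library, 22.1% were higher in both KO and 3.63% were lower in both KO. All 4 lacked H3K27me3, so that 4 of 5 genes without that mark were higher, against 26.1% of all genes of that kind, and 0 of 5 with both marks, against 14.3%. The difference between the 2 sets was not tested. The median difference (KO minus WT) over the 10 genes was 643.5 bp, against 128.5 bp over all genes with the mark. The 10 also had more bases to begin with, a median of 4481.5 bp in WT_407 against 2378 bp over all genes with the mark. Relative to WT, the KO mean was 113.45% over the 10 and 107.5% over all genes. With 2 mice per genotype the smallest p of the exact permutation test, from 6 labelings, is 0.333, which is the value at each gene whose genotypes did not overlap.

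Single libraries moved this count. KO_399 had the most covered bases of the 4 libraries at 10 of 10 genes. KO_401 had the fewest at Egr1, Egr2, Egr3 and Atf3, WT_407 at Fos, Fosb, Jun, Ier2 and Dusp1, and WT_409 at Junb. Without KO_401, 10 genes were higher in KO, and without WT_409, 6 were. Over all genes with H3K4me3, KO_399 was alone the highest of the 4 at 72.4%. The share of all genes called higher with a library left out was not counted. Without KO_399, Jun, Junb, Ier2 and Dusp1 were still higher in KO_401 than in both WT libraries, and Egr1, Egr2, Egr3 and Atf3 were lower. Over the 10 genes the WT mean was 4943 ± 105 bp and the KO mean 5608 ± 1002 bp (SD, n = 2 each). The difference of 664.8 bp became -43.7 bp without KO_399 and 1373.3 bp without KO_401.

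**Figure D1:**
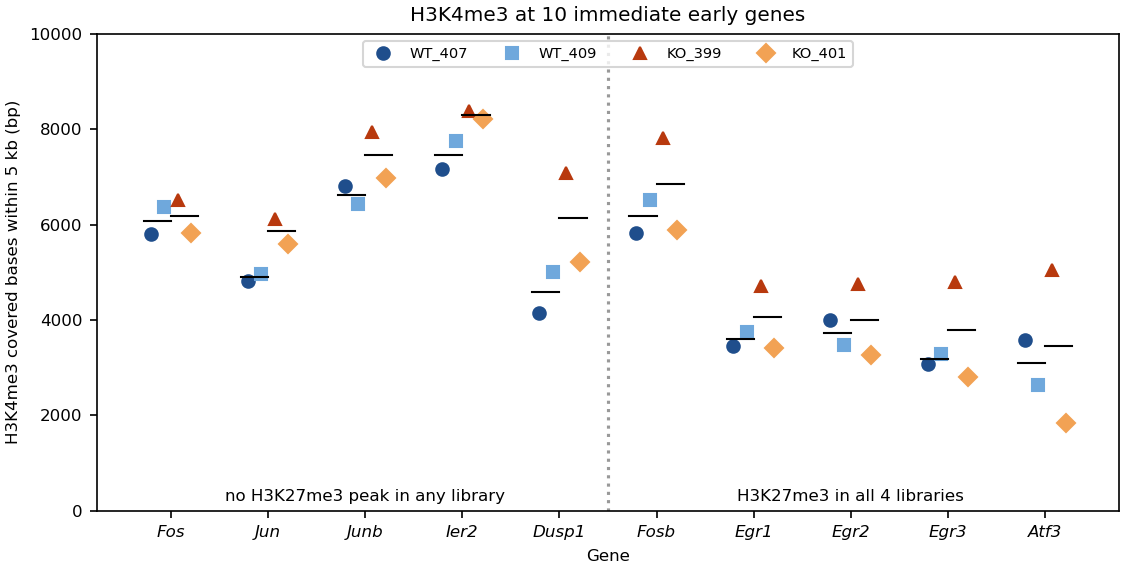
H3K4me3 covered bases within 5 kb of each of the 10 immediate early genes (vertical axis, bp), with 1 point for each of the 4 libraries and a line at each genotype's mean. Jun, Junb, Ier2 and Dusp1 are the genes at which both KO points lie above both WT points, and KO_399 is the highest point at all 10.

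The AP-1 subunits come first. Jun, the leucine zipper subunit that pairs with Fos proteins, lies on chromosome 4 from 95049036 to 95052222 (minus strand) and had 1 H3K4me3 peak in each library. Its width was 4817 bp (WT_407) and 4966 bp (WT_409) in WT, against 6121 bp (KO_399) and 5590 bp (KO_401) in KO. Both KO libraries were above both WT libraries. The WT mean was 4892 ± 105 bp and the KO mean 5856 ± 375 bp (SD, n = 2 each), or 119.7% of WT, with an exact permutation p of 0.333. The peak ended inside the gene in WT and beyond its far end in KO: measured from that end, its edge lay at -254 and -25 bp in WT_407 and WT_409 and at 825 and 345 bp in KO_399 and KO_401. The lncRNA Junos begins 95 bp from Jun on its upstream side, so that the upstream part of the peak also covers its near end. Upstream of the start the peak reached 1884 and 1804 bp in WT, against 2109 and 2058 bp in KO. The authors' fold at the summit was 60.4, 69.6, 59.0 and 58.2 in the same order of libraries. Within its own list, the Jun peak was at percentile 98.1 to 98.9 by width.

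Junb, a subunit that restrains myeloid proliferation, lies on chromosome 8 from 84976909 to 84978748 (minus strand). It had 6816 bp (WT_407) and 6438 bp (WT_409) of H3K4me3 in WT, against 7947 bp (KO_399) and 6967 bp (KO_401) in KO. The genotypes did not overlap, but WT_407 and KO_401 differed by little. The WT mean was 6627 ± 267 bp, the KO mean 7457 ± 693 bp (SD, n = 2 each) and the exact permutation p 0.333. A separate peak of 866 bp, found in KO_399 alone, was part of its excess. The start-site peak itself was 6816, 6438, 7081 and 6967 bp wide. The peak covered the whole gene span in every library and reached 2381 to 2507 bp past its far end, on which side the neighbouring gene Prdx2, a peroxiredoxin, lies 2098 bp away. Within 2 kb of the gene all 4 libraries were covered to the last base, so the genotypes could not differ there. With a 10 kb window they overlapped (a difference of 728.5 bp). Upstream, the peak reached 2185 to 2734 bp from the start.

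Fos, the founding member of its family and partner of Jun, lies on chromosome 12 from 85473890 to 85477274 (plus strand), directly after the promoter printed above. It had 5803 bp (WT_407) and 6367 bp (WT_409) of H3K4me3 in WT, against 6514 bp (KO_399) and 5833 bp (KO_401) in KO. The genotypes overlapped, and the difference of the means was 88.5 bp (exact permutation p = 0.667, n = 2 each). The start-site peak was 5279, 5847, 5864 and 5287 bp wide, WT_409 being close to KO_399 and WT_407 to KO_401. Upstream of the start its edge moved little between libraries, from 2094 to 2175 bp. Downstream it lay at 3131 and 3702 bp in the WT mice and at 3688 and 3192 bp in the KO mice.

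Ier2, a small nuclear protein induced along with Fos, lies on chromosome 8 from 84661331 to 84662852. It had 7159 bp (WT_407) and 7752 bp (WT_409) of H3K4me3 in WT, against 8377 bp (KO_399) and 8210 bp (KO_401) in KO. Both KO libraries were above both WT libraries. WT averaged 7456 ± 419 bp and KO 8294 ± 118 bp (SD, n = 2 each), or 111% of WT, with an exact permutation p of 0.333. The peak over the gene was 6260 and 6579 bp wide in WT and 7241 and 7159 bp in KO, with a width of percentile 99.4 to 99.6 in its own list. The gene span of 1522 bp was covered whole in all 4, so that the difference lay outside the span. From the lower end of the gene the peak began at -1536 and -1764 bp in WT and at -2197 and -2144 bp in KO, and it ended at 4723 and 4814 bp in WT and at 5043 and 5014 bp in KO. A second peak off the gene gave 899 to 1173 bp of the window in every library.

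Dusp1, a phosphatase that switches off p38 and JNK and thereby the signal that induced it, lies on chromosome 17 from 26505591 to 26508472 (minus strand). It had the largest difference of the 10, with 4146 bp (WT_407) and 5008 bp (WT_409) of H3K4me3 in WT, against 7073 bp (KO_399) and 5207 bp (KO_401) in KO. WT averaged 4577 ± 609.5 bp and KO 6140 ± 1319 bp (SD, n = 2 each), or 134% of WT, with an exact permutation p of 0.333. KO_401 lay just above WT_409, so KO_399 carried most of this difference. The start-site peak was 3673, 3858, 4917 and 4041 bp wide. It ended short of the far gene end in both WT libraries and, by 24 bp, in KO_401, and 562 bp past it in KO_399. Peaks beyond that end added 473 and 1150 bp in WT and 2156 and 1166 bp in KO. On this side the lncRNA Gm34455 lies 1244 bp away, and these peaks overlap it in every library, so that this part is shared with it. When each H3K4me3 list was cut to the same covered length, the genotypes overlapped at Dusp1 (a difference of 485 bp).

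**Figure D2:**
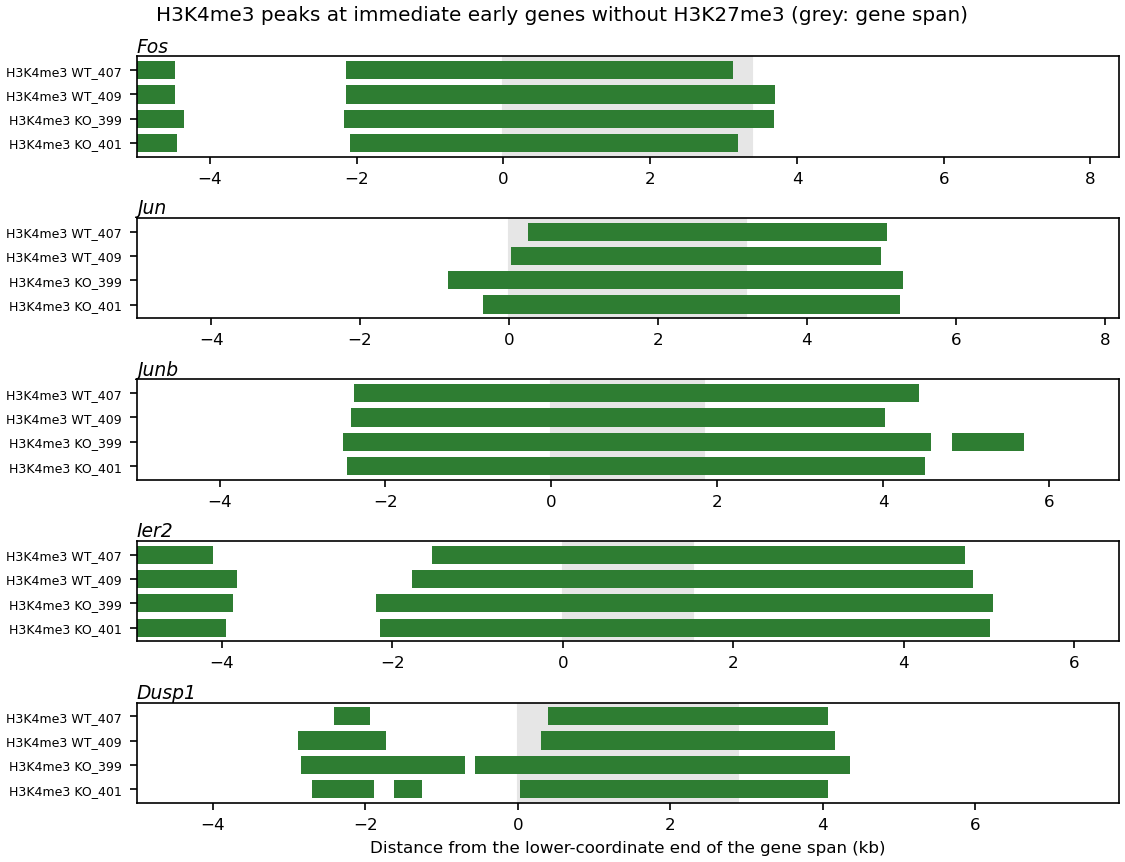
H3K4me3 peaks (bars) of the 4 libraries around the 5 immediate early genes with no H3K27me3 peak in the window, plotted by distance from the lower end of each gene (horizontal axis, kb). At each gene 1 long peak covers most or all of the span in all 4 libraries. At Jun the peaks of KO_399 and KO_401 run past the gene end that those of WT_407 and WT_409 stop short of. The long peak also stops short of the gene end at Fos in WT_407 and KO_401, and at Dusp1 in all libraries but KO_399.

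The peak that covered the start site, or the gene where no start was listed, was wider in both KO libraries at the same 4 genes, Jun, Junb, Ier2 and Dusp1, and narrower at none. Over all genes with such a peak, 23.9% were wider and 3.74% narrower. Without KO_401, this count was 10, and the share of all genes was not counted in that case. For 6 genes with 1 listed start (Fos, Fosb, Jun, Junb, Dusp1 and Atf3), the 2 edges of this peak could be followed on their own. The downstream edge, which lies in the transcribed direction, was farther from the start in both KO libraries at Jun, Junb and Dusp1, and less far at none, against 27.9% and 4.55% of all genes of that kind. For Jun it lay at 2932 and 3161 bp in WT and 4011 and 3531 bp in KO. For Dusp1 the values were 2480 and 2580 bp in WT and 3443 and 2857 bp in KO, and for Junb 4220 and 4252 bp against 4346 and 4307 bp. In bp the mean shift was larger at Jun (724.5 bp) and Dusp1 (620 bp) than at Junb (90.5 bp). In that order of genes the WT SDs were 162, 70.7 and 22.6 bp and the KO SDs 339, 414 and 27.6 bp (n = 2 each). The exact permutation p was 0.333 at each. The upstream edge was farther in both KO libraries at Jun and Junb and less far at none, against 21.4% and 8.5% of genes. At Fosb and Atf3 the downstream edge of KO_401 was the shortest of the 4, at 3148 and 1043 bp. Without KO_401, 5 genes reached farther downstream and 4 farther upstream, and the shares of all genes were not counted in that case.

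The 5 genes with both marks follow. Egr1, a zinc finger factor of stem cell quiescence, lies on chromosome 18 from 34861207 to 34864956. It had 3452 bp (WT_407) and 3741 bp (WT_409) of H3K4me3 in WT, against 4715 bp (KO_399) and 3406 bp (KO_401) in KO. KO_399 was high and the other 3 libraries were close to each other, so that the genotypes overlapped (exact permutation p = 1, n = 2 each). Its H3K27me3 was the shortest of the 5, with 2646 and 3170 bp in WT and 2065 and 2883 bp in KO, at percentile 21.2 of the 4150 genes marked in all 4, whose median was 4260 bp. That peak lay over the gene itself, beginning between -5 and 109 bp from its lower end, while the H3K4me3 peak began between -1964 and -1771 bp. The 2 marks of the same mouse covered 1279 to 2065 bases in common.

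Egr2, a related zinc finger factor, lies on chromosome 10 from 67534469 to 67542188 (plus strand), with 5 listed starts, and its CArG boxes were printed above. It had 4002 bp (WT_407) and 3469 bp (WT_409) of H3K4me3 in WT, against 4747 bp (KO_399) and 3261 bp (KO_401) in KO. The genotypes overlapped, and 559 bp in KO_399 came from a peak on the side of the next gene, Ado. H3K27me3 lay in blocks at either end of the H3K4me3 peak, and the marks overlapped there. It covered 6760 and 6714 bp in WT and 5060 and 5391 bp in KO, both KO values lying below both WT values (6737 ± 32.5 bp against 5226 ± 234 bp, SD, n = 2 each), with an exact permutation p of 0.333. When each H3K27me3 list was cut to the same covered length, the difference at Egr2 was 28.5 bp in the other direction. The lncRNA Gm32255 overlaps the lower end of Egr2, so that the block there is shared with it.

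Egr3, the third zinc finger factor of the family, lies on chromosome 14 from 70077317 to 70082613. Its stronger H3K4me3 peak lay off the gene span, between -3153 and -988 bp from its lower end, with an authors' fold of 30.1, 50.6, 49.3 and 36.4. The peak touching the span had a fold of 8.03, 6.86, 10.1 and 7.39 and a width of 1366, 1296, 2679 and 1167 bp. KO_399 was long and KO_401 short, and covered bases overlapped between the genotypes, at 3082, 3284, 4788 and 2798 bp. A single H3K27me3 peak covered the whole gene in all 4 libraries, 9379 and 10234 bp wide in WT, against 7784 and 9251 bp in KO. The genotypes did not overlap (9807 ± 605 bp against 8518 ± 1037 bp, SD, n = 2 each) and the exact permutation p was 0.333, with KO_401 just under WT_407. Because the gene is covered whole in each library, the difference lay outside the span, and the call was lost on the gene span alone.

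Fosb, the second Fos protein among the 10, lies on chromosome 7 from 19302696 to 19310118 (minus strand). It had 5834 bp (WT_407) and 6511 bp (WT_409) of H3K4me3 in WT, against 7823 bp (KO_399) and 5876 bp (KO_401) in KO, and the genotypes overlapped. The start-site peak was 4008, 4038, 4488 and 3976 bp wide, and the rest lay in smaller peaks toward the far end and beyond it, where the lncRNA Gm26802 lies 1903 bp away. H3K27me3 covered 7305 and 6315 bp in WT, and 1715 and 5794 bp in KO. Both KO libraries were below both WT libraries (6810 ± 700.0 bp against 3755 ± 2884 bp, SD, n = 2 each), or 55.1% of WT, with an exact permutation p of 0.333. Most of this difference came from KO_399. The H3K27me3 lay mainly on the side of the gene away from the start. At its strongest summit the recovered reads were 73 and 70 in WT and 39 and 48 in KO. Bases covered by both marks in the same mouse were 3020 and 2465 in WT and 1689 and 1930 in KO. Fosb was the member at which this overlap was lower in both KO libraries, and the share of all genes with a lower overlap was not counted.

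Atf3, a stress-induced member of the ATF and CREB family, lies on chromosome 1 from 191170296 to 191183333 (minus strand) and has the TGACG match closest to its start of the promoters printed above. It had 3575 bp (WT_407) and 2634 bp (WT_409) of H3K4me3 in WT, against 5056 bp (KO_399) and 1843 bp (KO_401) in KO. The KO libraries were thus the highest and the lowest of the 4 (exact permutation p = 1, n = 2 each). H3K27me3 covered 8401 and 10629 bp in WT and 7041 and 10126 bp in KO, with the genotypes overlapping. It lay on both sides of the start, and in WT_409 it was 1 peak of 11765 bp that held the whole H3K4me3 peak. In KO_401 a peak of 9812 bp also held the whole H3K4me3 peak, with a smaller peak of 1170 bp beside it. In WT_407 and KO_399 it was broken into 3 peaks.

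**Figure D3:**
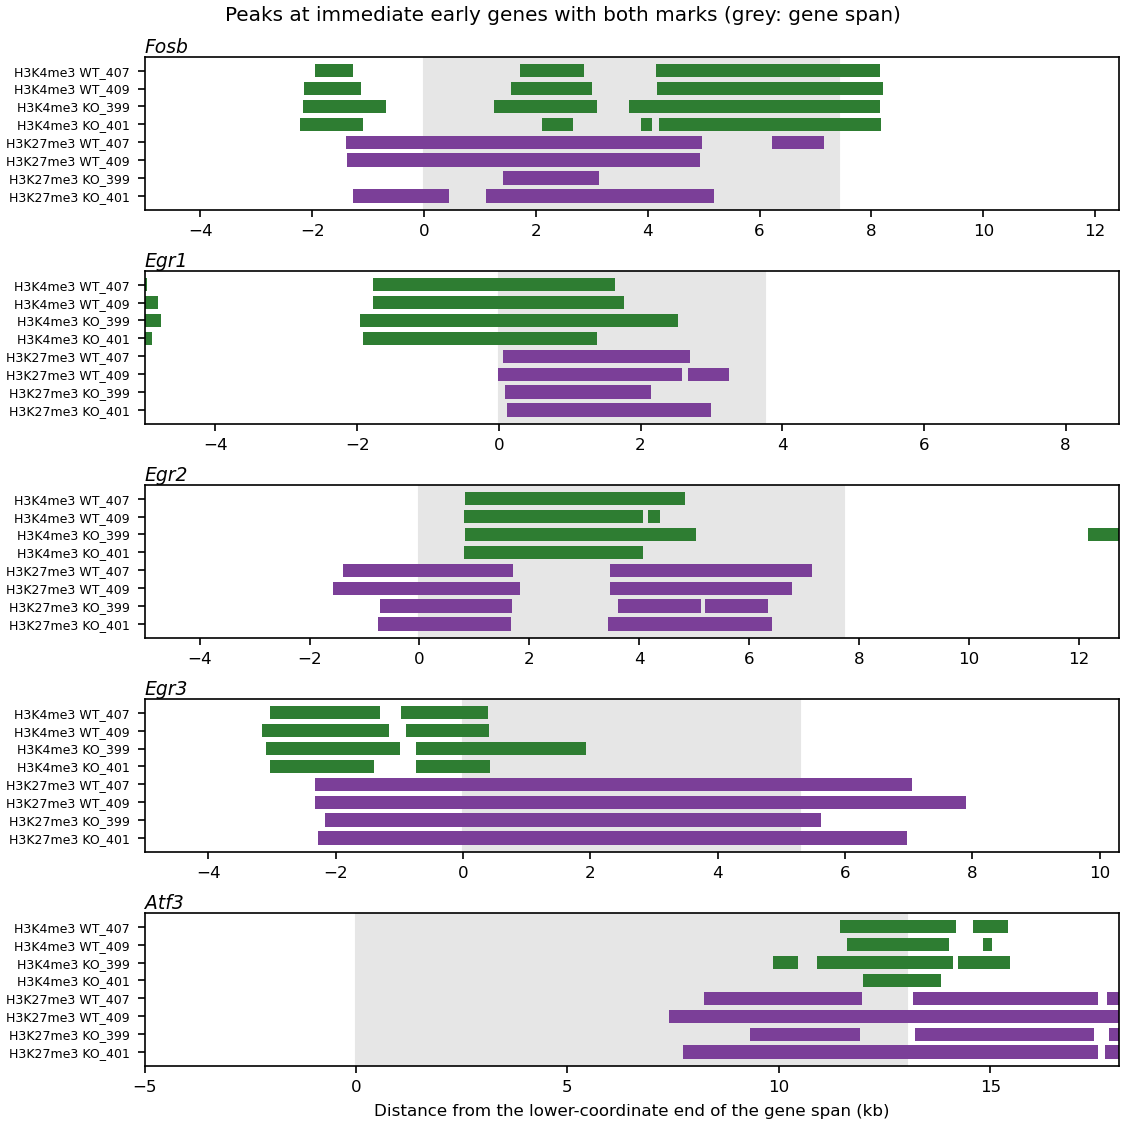
H3K4me3 and H3K27me3 peaks (bars, 1 row for each library and mark) around the 5 immediate early genes with both marks, by distance from the lower end of each gene (horizontal axis, kb). H3K27me3 spans Egr3 whole, flanks the H3K4me3 peak of Egr2 and is shortest at Egr1, and the Fosb block of KO_399 is 1715 bp against 5794 to 7305 bp in the other libraries.

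Of the 5 genes with H3K27me3, 3 had fewer covered bases in both KO libraries (Fosb, Egr2 and Egr3) and none had more. This is near the share of all genes with that mark in any library, 70.0% lower and 0.0154% higher. Of genes with both marks in all 4, 79.9% were lower in both KO. The median difference (KO minus WT) over the 5 was -1289 bp, against -1356 bp over all genes with the mark. Relative to WT, the KO mean was 79.8% over the 5 and 61.5% over all genes. KO_399 had the fewest covered bases at 5 of 5. Without KO_401, and without WT_407, 5 of 5 were lower in KO. Over all genes with H3K27me3, KO_399 was alone the lowest at 72.8%, and the share called lower with a library left out was not counted. Over all 10 genes the WT libraries averaged 3578 ± 182 bp and the KO libraries 2856 ± 692 bp (SD, n = 2 each), and the difference of -722.15 bp was -233.15 bp without KO_399.

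**Figure D4:**
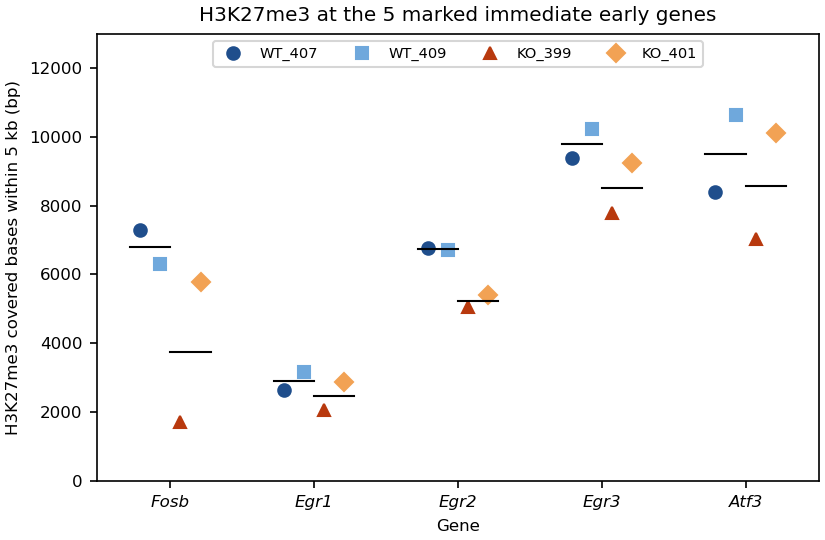
H3K27me3 covered bases within 5 kb of the 5 immediate early genes with that mark (vertical axis, bp), with 1 point for each of the 4 libraries and a line at each genotype's mean. Both KO points lie below both WT points at Fosb, Egr2 and Egr3, the genotypes overlap at Egr1 and Atf3, and KO_399 is the lowest point at all 5.

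Strength at the summit was read beside width. The authors' fold of the start-site H3K4me3 peak was between 42.0 and 74.7 for Fos, Fosb, Jun, Junb, Ier2, Dusp1 and Egr1, while Egr2 (36.7 to 62.8), Atf3 (23.9 to 45.0) and the span peak of Egr3 reached lower values. The reads at the summit, recovered from the deposited fold and p-value and not scaled for depth, overlapped between the genotypes at Jun (194 and 204 in WT, 221 and 196 in KO) and at Dusp1 (172 and 198, against 217 and 182). They also overlapped at Junb (188 and 204, against 233 and 192) and at Ier2 (215 and 244, against 256 and 238). The authors' fold at the same summits, a value of each list on its own, was lower in both KO libraries at Jun (60.4 and 69.6 in WT, 59.0 and 58.2 in KO) and at Junb (58.6 and 69.6, against 49.9 and 57.0). It overlapped between the genotypes at Ier2 (42.0 and 54.1, against 70.4 and 46.2) and at Dusp1 (53.6 and 43.9, against 59.8 and 50.4). For H3K27me3, the fold of the strongest peak by q was lower in both KO libraries at Fosb, Egr1, Egr2 and Atf3, and overlapped at Egr3. At Egr1 it was 12.5 and 14.4 in WT and 7.22 and 10.7 in KO, and at Atf3 18.1 and 22.9 against 8.37 and 14.1. The reads at these H3K27me3 summits, not scaled for depth, were lower in both KO libraries at Fosb, Egr1, Egr3 and Atf3. They overlapped at Egr2 (63 and 88 in WT, 40 and 70 in KO). At Egr1, WT_407 and KO_401 were close (50 and 59 in WT, 31 and 49 in KO). The share of all genes with a lower fold or fewer reads was not counted.

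Other genes of the same response were read in the same way, beside 22.1% higher and 3.63% lower in both KO libraries over all genes with H3K4me3. Of 13 other AP-1 family genes, all with H3K4me3, 4 were higher in both KO libraries (Mafg, Atf4, Batf and Mafk) and none was lower. Mafg, a small Maf partner, had 9096 bp (WT_407) and 9978 bp (WT_409) in WT, against 11001 bp (KO_399) and 10372 bp (KO_401) in KO. Among 31 other primary response genes with the mark, 3 were higher and 1 lower. Those higher were Mcl1, a survival factor (6914 and 7595 bp in WT, 10596 and 7596 bp in KO), Zfp36l1, an RNA-decay factor (5924 and 5797 bp, against 8033 and 7039 bp), and Klf2 (5228 and 5405 bp, against 6014 and 5976 bp). At Mcl1, KO_401 and WT_409 were all but equal. Klf4, a zinc finger factor, was lower, at 4281 and 3955 bp in WT and 3820 and 3672 bp in KO.

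None of the 16 dual-specificity phosphatases and feedback inhibitors outside the 10 was higher or lower, against 22.1% and 3.63% of all genes with H3K4me3. Dusp6, a phosphatase of ERK and a relative of Dusp1, had 7520 bp (WT_407) and 8655 bp (WT_409) in WT, against 9289 bp (KO_399) and 7856 bp (KO_401) in KO. The signal-carrying side gave 9 higher and 1 lower of 22 MAP kinase cascade genes, among them the kinases Rps6ka1 (8395 and 8371 bp in WT, 9967 and 9019 bp in KO) and Map2k1 (3502 and 3656 bp, against 4339 and 3660 bp). Of 12 regulators around serum response factor, ternary complex factors and CREB, Elk1 was higher (3394 and 3590 bp, against 4528 and 3930 bp) and none was lower. Of 15 pausing and pause release factors 4 were higher (Nelfb, Aff4, Nelfe and Supt5) and none lower. Supt5, which holds and then escorts paused polymerase, had 4407 and 4417 bp in WT and 4817 and 4541 bp in KO. Without KO_401 the counts of higher genes rose in each of these lists, to 22 primary response, 13 feedback, 19 cascade, 10 regulator, 10 AP-1 and 13 pausing genes. Without KO_399 the counts of lower genes rose in each of them, to 13 primary response, 5 feedback, 5 cascade, 4 regulator, 4 AP-1 and 8 pausing genes. Without WT_407 the counts of higher genes were 7, 6, 12, 5, 8 and 5 in the same order of lists, and without WT_409 they were 13, 5, 13, 4, 5 and 6. The lower primary response genes numbered 7 without WT_407 and 3 without WT_409. The share over all genes was not counted with a library left out.

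H3K27me3 was lower in both KO libraries at 13 of 19 other primary response genes with the mark, 6 of 9 phosphatases and feedback inhibitors and 3 of 4 AP-1 genes. These shares of 68.4%, 66.7% and 75% are near the 70.0% of all genes with the mark. Few genes of 2 further lists had the mark. Of 3 regulators around serum response factor, ternary complex factors and CREB, 1 was lower, and of 2 pausing and pause release factors none was. Egr4, the remaining member of the Egr family, had 10101 bp (WT_407) and 8604 bp (WT_409) in WT, against 4748 bp (KO_399) and 5696 bp (KO_401) in KO. Fosl1, a Fos relative, had 3503 and 9769 bp in WT and 2182 and 2804 bp in KO. None of the 22 MAP kinase cascade genes had H3K27me3 in any library, like Fos, Jun, Junb, Ier2 and Dusp1.

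**Figure D5:**
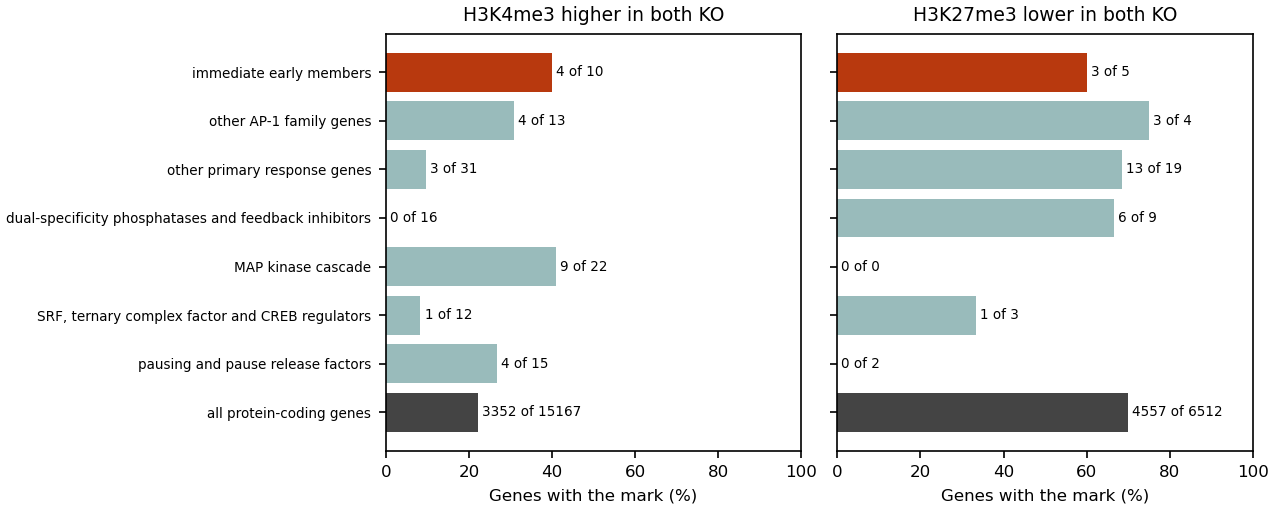
Share of genes with the mark (horizontal axis, percent) whose covered bases were higher (H3K4me3, left) or lower (H3K27me3, right) in each KO library than in either WT library, for the immediate early genes, the related lists and all protein-coding genes. The immediate early genes stand at 4 of 10 for higher H3K4me3, against 22.1% of all genes, and at 3 of 5 for lower H3K27me3, against 70.0%.

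Outside all lists, the genes whose 4 H3K4me3 values were nearest to the mean of the 10, by Euclidean distance of log2(covered bases + 1) over the 4 libraries, were Coq8b (0.0470), Zfc3h1 (0.0704) and Psme2 (0.0824). Coq8b had 4734 bp (WT_407) and 4663 bp (WT_409) in WT, against 6045 bp (KO_399) and 4415 bp (KO_401) in KO. As in the mean of the 10, KO_399 was the highest and the other 3 libraries lay close together.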

How the data were processed

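Peak lists of 8 immunoprecipitated libraries were used, and the 4 input libraries were not analysed here. Per the submitters' processing notes, the build was mm10 and the tools were MACS2, Bowtie2, SAMtools and deepTools, with FastQC and Trim Galore, none with a version. The settings and control of MACS2 are not given in the sources used here. The lists are in narrowPeak layout. Their deposited values for a peak are a score in whole numbers, a fold (a ratio of reads to background at its summit), −log10 p and −log10 q, all set by the authors and used here to describe peaks within a list. Peaks were called per library. Every deposited fold was above 5 and peak numbers were skipped: 66.7% to 78.0% of numbered H3K4me3 peaks and 24.8% to 36.5% of H3K27me3 peaks were listed.

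Gene spans came from a RefSeq table of GRCm38.p6, which shares mm10 coordinates and gives no strand, and start sites came from its promoter table. Covered bases were summed per library within 5 kb of each span (minimum overlap 1 bp). Where no start was listed, the widest peak touching the span was used. A gene was called higher or lower where both KO libraries lay beyond both WT libraries, and each gene was tested by a two-sided exact permutation test. Read totals are unknown, and the background at the summits was recovered from the deposited fold and p-value within 0.001 of −log10 p for 100% of summits. Python 3.11.15, numpy 2.4.6, pandas 2.3.3, scipy 1.17.1 and matplotlib 3.10.9 were used, and the measures were tested on simulated data.

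The members and lists were chosen with earlier results of these data known, and the edges of peaks were added as a measure after values were seen. Beside the 10 genes, the text draws from up to 4 genes of each related list with the largest H3K4me3 difference among those whose genotypes did not overlap (or, if none, the 2 with the most covered bases), up to 3 with the most H3K27me3, and the 3 nearest patterns. Alternatives were windows of 0, 2 and 10 kb, a fold of at least 10, equal numbers of peaks, equal covered length, whole peaks with the summit in the window, and each library left out. P-values give the share of the 6 labelings of the libraries whose mean difference was at least as large as that observed, with 2 mice per genotype.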

Additional observations from a re-analysis of the deposited data

How the results depend on the processing

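The count of 4 genes with longer H3K4me3 in both KO libraries ranged from 4 to 10 with a library left out, that of genes with shorter H3K4me3 from 0 to 4, and that of genes with shorter H3K27me3 from 3 to 5. Wider start-site peaks ranged from 4 to 10, edges farther downstream from 3 to 5 and farther upstream from 2 to 4. The mean difference over the 10 genes ranged from -43.7 to 1373.3 bp for H3K4me3 and from -1211.15 to -233.15 bp for H3K27me3. With a library left out, a genotype of 1 mouse is called against 2, which is easier to pass. The share over all genes was not counted in any alternative. Other alternatives lowered the counts. Longer H3K4me3 was found at 3 genes with each window of 0, 2 and 10 kb and with the same covered length per library. Shorter H3K27me3 was found at 2 genes on the gene span alone and with the same covered length. At a fold of at least 10, 1 gene had H3K27me3 in all libraries. With the same covered length per library, 1 gene (Egr3) had shorter H3K4me3 in both KO libraries, the mean H3K27me3 difference was -260.9 bp with the genotypes overlapping, and the Egr2 difference turned to 28.5 bp; the cause was not tested. Of the 11 alternatives, the H3K4me3 call was kept in 11 for Jun, 10 for Ier2 and Dusp1 and 8 for Junb, and the H3K27me3 call in 11 for Fosb and 10 for Egr2 and Egr3. No paired analysis was possible because the WT and KO mice share no number, and the marks of 1 mouse are different measures. Reads per library limit the detection of weak peaks, and their number is unknown.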
